A study of Mus musculus with 6 samples.

Results

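The genes of cholesterol synthesis, cholesterol uptake and their control by SREBP2 were examined in aortas of mice lacking Apoe alone and of mice lacking both Apoe and Adora1. The set was a list of 29 genes, and 28 of them had at least 1 row of the deposited table whose annotation names that gene and no other, out of 19752 genes with such a row. Acat2, the cytosolic acetoacetyl-CoA thiolase, had none and was left out. Where a gene had more than 1 such row, the row with the highest mean over the 6 arrays stood for it. The list was drawn up by pathway, not by how the genes behaved in the genotype comparison, although earlier results from these arrays were known.

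Both groups carried the apoe-/- genotype, which makes mice prone to atherosclerosis because remnant lipoproteins are cleared poorly. The ApoE-KO group was apoe-/- (3 mice) and the DKO group was apoe-/- adora1-/- (3 mice), where Adora1 encodes the adenosine A1 receptor. All mice had the C57BL/6 background, were 20 weeks old and were housed under normal conditions, and the diet and the tissue or cell type in which each allele is inactive are not stated in the labels used here. The series text names its comparison group as ADORA1 KO, whereas every sample label of that group gives apoe-/-, and the sample labels were followed. The aorta was measured as a whole, 1 Affymetrix whole-transcript array per mouse, and the 6 arrays included neither wild-type mice nor mice lacking Adora1 alone. The levels of the 2 deleted genes were not analysed here. Smooth muscle markers, 8 of 8 with a row, had mean levels of 12.59 to 12.79 in ApoE-KO and 12.72 to 12.85 in DKO (log2 intensity, on which 1 unit is a doubling), on arrays whose values ran from 2.35 to 14.86. In tissue of mixed cells, fewer cells of a type and less RNA per cell cannot be told apart.

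Cholesterol is built from acetyl units through mevalonate, isoprenoid diphosphates, squalene and lanosterol. Cells match synthesis to supply through SREBP2, a membrane-bound transcription factor that its escort SCAP carries from the endoplasmic reticulum to the Golgi for cleavage when sterols are low, and that the INSIG proteins hold back when sterols are plentiful. The released factor binds sterol regulatory elements, usually together with NF-Y at CCAAT boxes and Sp1 at GC boxes, and raises the synthesis enzymes as a group. In the artery wall, lipoprotein cholesterol taken up by macrophages and smooth muscle cells is one supply that this circuit senses.

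To show what the members share in sequence, the 250 bases before each annotated start were read from RefSeq promoter records of build GRCm38.p6, which cover 23 of the 28 genes with 29 starts. The 5 printed here are those of Hmgcs1, the only one of these 23 with a match to the sterol regulatory element letters, of 3 other enzymes that were high in the same arrays as described further on (Idi1, Cyp51 and Msmo1), and of Mylip, which was not. They are at chr13:119690101-119690350 (+ strand), chr13:8885356-8885605 (+ strand), chr5:4104698-4104947 (- strand), chr8:64733579-64733828 (- strand) and chr13:45389492-45389741 (+ strand), each written 5′ to 3′ on the strand of its gene. Capitals mark the sterol regulatory element TCACNCCAC and the CCAAT box, with CCAAT read as ATTGG where it is on the opposite strand.
Hmgcs1: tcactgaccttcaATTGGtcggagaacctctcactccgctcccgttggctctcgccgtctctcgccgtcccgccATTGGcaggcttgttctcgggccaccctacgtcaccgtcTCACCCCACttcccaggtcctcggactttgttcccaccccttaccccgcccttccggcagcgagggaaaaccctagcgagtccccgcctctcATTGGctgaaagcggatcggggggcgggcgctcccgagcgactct
Idi1: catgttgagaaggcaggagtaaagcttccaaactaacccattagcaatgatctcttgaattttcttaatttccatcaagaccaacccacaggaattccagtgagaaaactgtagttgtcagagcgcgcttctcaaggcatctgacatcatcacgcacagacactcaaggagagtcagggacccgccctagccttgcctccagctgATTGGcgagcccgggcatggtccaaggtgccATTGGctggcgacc
Cyp51: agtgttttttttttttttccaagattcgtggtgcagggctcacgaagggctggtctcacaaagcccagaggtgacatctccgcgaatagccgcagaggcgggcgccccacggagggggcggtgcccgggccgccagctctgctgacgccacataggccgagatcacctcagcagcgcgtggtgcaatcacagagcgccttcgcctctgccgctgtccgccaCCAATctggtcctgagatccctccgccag
Msmo1: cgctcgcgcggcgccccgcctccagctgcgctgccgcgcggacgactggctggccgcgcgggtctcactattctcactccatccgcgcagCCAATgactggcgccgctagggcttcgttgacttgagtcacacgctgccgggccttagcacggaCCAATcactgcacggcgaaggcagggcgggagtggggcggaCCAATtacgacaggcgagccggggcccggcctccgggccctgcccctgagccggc
Mylip: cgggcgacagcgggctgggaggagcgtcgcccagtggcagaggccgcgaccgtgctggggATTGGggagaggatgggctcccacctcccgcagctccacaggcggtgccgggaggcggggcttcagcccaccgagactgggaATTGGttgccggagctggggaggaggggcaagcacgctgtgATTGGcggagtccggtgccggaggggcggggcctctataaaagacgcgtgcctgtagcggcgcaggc

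In Hmgcs1 the sterol regulatory element began 137 bases before the start, with CCAAT boxes beginning 237, 176 and 45 bases before it. The CCAAT boxes of Msmo1 began 160, 96 and 55 bases before the start, those of Idi1 45 and 14, and that of Cyp51 29. Mylip, which is no enzyme of synthesis, had 3 as well (190, 108 and 67). Searched on both strands, CCAAT stood in 20 of the 29 member windows (69.0%) and in 33.8% of all 32851 windows of the same length in the table. The GC box GGGCGG stood in 20 of 29 (69.0%) against 32.7%, and TCACNCCAC in 1 of 29 (3.45%) against 1.05%. The 3 motifs share no letters in the windows shown. A window without a match says only that these letters are not in it. The windows of the whole table were not matched to those of the members by base composition or expression. Binding of SREBP2 was not measured.

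None of the 28 members passed the genotype test. With limma over all 25254 probe sets and without pairing, adjusted p-values of the members ran from 0.862 to 0.995, and 0 members had an unadjusted p under 0.05, where 0% of all probe sets passed after adjustment and 5.62% had an unadjusted p under 0.05. With the arrays paired by replicate number, as a block in limma, 0 members passed again (adjusted p from 0.213 to 0.976), against 0.174% of all probe sets. In that fit 5 of the 28 members (17.9%) had an unadjusted p under 0.05, close to the 16.2% of all probe sets. All 5 were higher in DKO (10.1% of all probe sets had such a p and were higher in DKO, and 6.1% were lower): Hmgcs1, Msmo1, Insig2, Npc1 and Mylip. The 95% intervals of the paired differences lay between -0.35 and 0.46 on the log2 scale for every member, and those of the unpaired differences between -0.74 and 0.81.

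The median difference over the members, DKO minus ApoE-KO, was 0.020 on the log2 scale, beside -0.0024 over all probe sets. Means were higher in DKO for 15 members (53.6%, against 49.3% of all probe sets) and lower for 13. The median turned with single arrays: leaving out DKO replicate 1 gave -0.079, and leaving out an ApoE-KO array gave 0.11 (replicate 1), -0.015 (replicate 2) or -0.023 (replicate 3), and without DKO replicate 2 or 3 it was 0.074 or 0.089. By replicate number, 19 of 28 members were higher in DKO in pair 1 (67.9%, against 49.8% of all probe sets), 14 in pair 2 (50%, against 47.6%) and 14 in pair 3 (50%, against 54.4%). The pair medians were 0.073, -0.0069 and 0.0020. Across all 3 pairs, 8 members were higher in DKO (28.6%, against 21.2% of all probe sets) and 3 were lower (10.7%, against 19.1%).

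**Figure D1:**
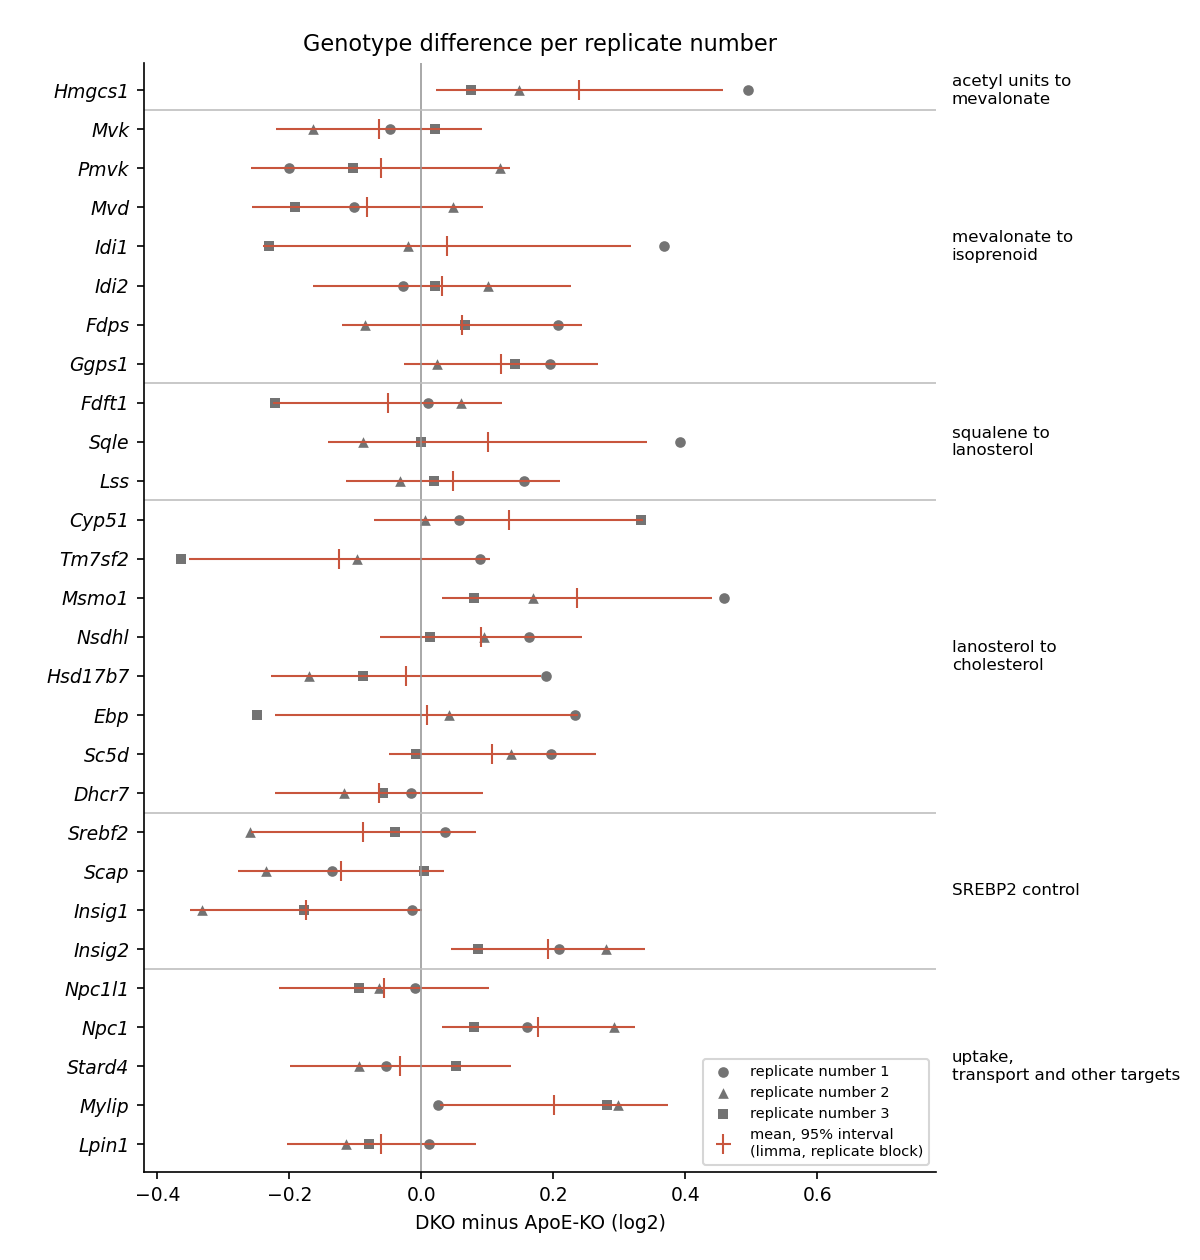
DKO minus ApoE-KO in log2 intensity for each member, in pathway order, with 1 grey symbol per replicate number and the mean with its 95% interval from limma with the replicate number as a block in red. Points of replicate number 1 lie farthest to the right for Hmgcs1, Idi1, Sqle and Msmo1, and every mean lies between -0.17 and 0.24.

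At the entry to the pathway, Hmgcs1, the cytosolic synthase that makes the precursor of mevalonate, had the highest mean difference of the members. Its level was 9.22, 8.99 and 8.98 in ApoE-KO replicates 1 to 3 and 9.71, 9.14 and 9.05 in DKO. Both replicate 1 arrays were the highest of their group, and the groups overlapped. The means were 9.06 ± 0.14 and 9.30 ± 0.36 (SD, n = 3 each). The difference of 0.24 (95% interval 0.022 to 0.46, paired limma, adjusted p = 0.272, unpaired interval -0.19 to 0.67) did not pass. It was 0.11 without both arrays of number 1, and 0.034 without DKO replicate 1 alone, unpaired.

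Among the enzymes that turn mevalonate into isoprenoid diphosphates, the differences were small and mixed in sign, 4 higher and 3 lower with a median of 0.032. The kinases Mvk and Pmvk and the decarboxylase Mvd stood at -0.063, -0.061 and -0.082. Fdps, which joins isoprenoid units into farnesyl diphosphate, stood at 0.062. Ggps1, which extends farnesyl to geranylgeranyl diphosphate for protein prenylation, read 9.94, 9.73 and 9.58 in the ApoE-KO mice, against 10.13, 9.75 and 9.73 in the DKO mice. It was higher in DKO in 3 of 3 pairs, by 0.20, 0.025 and 0.14, and did not pass (difference 0.12, paired limma, adjusted p = 0.382). It was 0.084 without both arrays of number 1, and -0.010 without DKO replicate 1 alone, unpaired.

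Idi1, the isomerase that supplies dimethylallyl diphosphate, was high in both replicate 1 arrays. It read 7.70, 7.02 and 7.12 in the ApoE-KO mice, against 8.07, 7.004 and 6.89 in the DKO mice. Its genotype difference was 0.039 (unpaired 95% interval -0.74 to 0.81), whereas its 2 replicate 1 arrays averaged 0.88 above the other 4. A second probe set that names Idi1 alone gave the same order of replicate 1 over the others, at 7.70, 6.97 and 6.83 in the ApoE-KO mice, against 8.10, 7.02 and 6.79 in the DKO mice. Idi2, a neighbouring copy of the isomerase gene, lay near the dim end of the arrays, at 5.18 to 5.53, and signal shared between the copies cannot be told apart.

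Of the enzymes from squalene to lanosterol, Sqle, the squalene epoxidase, read 8.55, 8.21 and 8.13 in the ApoE-KO mice, against 8.95, 8.12 and 8.13 in the DKO mice. Its pairs stood at 0.39, -0.089 and -0.00093, so the mean difference of 0.10 came from pair 1. Lss, the cyclase that forms lanosterol, stood at 0.048. Fdft1, the squalene synthase, stood at -0.051 in the probe set used and at 0.12 in its second probe set, which is opposite in sign, with 95% intervals of -0.41 to 0.31 and -0.30 to 0.53.

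In the steps from lanosterol to cholesterol, 5 of 8 enzymes were higher in DKO and 3 lower, with a median of 0.050. Msmo1, the methylsterol monooxygenase, read 8.96, 8.56 and 8.50 in the ApoE-KO mice, against 9.41, 8.73 and 8.58 in the DKO mice. It was higher in DKO in 3 of 3 pairs, by 0.46, 0.17 and 0.080, though the groups overlapped because ApoE-KO replicate 1 stood above DKO replicates 2 and 3. Its difference of 0.24 (95% interval 0.031 to 0.44, paired limma, adjusted p = 0.257, unpaired interval -0.31 to 0.78) did not pass. It was 0.12 without both arrays of number 1, and -0.016 without DKO replicate 1 alone, which leaves ApoE-KO replicate 1 without its pair.

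Cyp51, the lanosterol demethylase, read 8.04, 7.41 and 7.25 in the ApoE-KO mice, against 8.10, 7.42 and 7.58 in the DKO mice, and its difference of 0.13 came mostly from pair 3, at 0.33. Nsdhl, which acts beside Msmo1 in removing methyl groups, and Sc5d, a sterol desaturase, stood at 0.091 and 0.11. The ketoreductase Hsd17b7 and the isomerase Ebp stood at -0.023 and 0.0085. The sterol reductase Tm7sf2 stood at -0.12, and its pairs ran from 0.089 to -0.36. Dhcr7, the reductase of the last step, was lower in DKO in 3 of 3 pairs, by at most 0.12, with a mean of -0.064.

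The control genes did not share 1 direction. Srebf2, which encodes the transcription factor, read 10.44, 10.36 and 10.15 in the ApoE-KO mice, against 10.47, 10.10 and 10.11 in the DKO mice, with a difference of -0.088 (paired limma, adjusted p = 0.591). Scap, its escort, read 10.30, 10.42 and 10.12 in the ApoE-KO mice, against 10.16, 10.19 and 10.12 in the DKO mice, a difference of -0.12 (adjusted p = 0.405, same fit). In both genes the groups overlapped, and DKO replicate 1 was the highest of the 6 arrays for Srebf2.

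The INSIG genes, which encode the retention proteins, had mean differences of opposite sign, and neither passed. Insig1, itself a target of SREBP2, read 9.86, 10.15 and 10.03 in the ApoE-KO mice, against 9.84, 9.81 and 9.85 in the DKO mice. All 3 DKO arrays lay below the lowest ApoE-KO array, but by little, and in pair 1 the difference was only -0.014. Groups that did not overlap with DKO lower were found for this 1 member (3.57%, against 6.47% of all probe sets). The mean difference was -0.17 (95% interval -0.35 to 0.0017, paired limma, adjusted p = 0.312). It was -0.11 without ApoE-KO replicate 2 and -0.096 without both arrays of number 2.

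Insig2, the form whose transcript depends less on SREBP2, had the smallest unadjusted p of the members in the paired fit (0.0181) and one of 0.390 in the unpaired fit, where Mylip had the smallest (0.0699). It read 10.42, 9.85 and 9.92 in the ApoE-KO mice, against 10.63, 10.13 and 10.003 in the DKO mice, higher in DKO in 3 of 3 pairs by 0.21, 0.28 and 0.085. The groups overlapped because ApoE-KO replicate 1 stood above DKO replicates 2 and 3. The difference of 0.19 (95% interval 0.044 to 0.34, paired limma, adjusted p = 0.213, unpaired interval -0.30 to 0.68) did not pass. It was 0.0041 without DKO replicate 1, an omission that leaves ApoE-KO replicate 1 without its pair. Leaving out both arrays of a number kept it between 0.15 and 0.24.

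Of the genes for uptake and transport, Npc1, the lysosomal protein that exports lipoprotein cholesterol, read 10.75, 10.51 and 10.62 in the ApoE-KO mice, against 10.91, 10.80 and 10.70 in the DKO mice. It was higher in DKO in 3 of 3 pairs, by 0.16, 0.29 and 0.081. The mean was 0.18 (95% interval 0.031 to 0.32, paired limma, adjusted p = 0.237, unpaired interval -0.053 to 0.41). Mylip, a ubiquitin ligase that is induced by sterol-activated LXR and marks lipoprotein receptors for degradation, read 9.99, 9.91 and 9.79 in the ApoE-KO mice, against 10.01, 10.21 and 10.08 in the DKO mice. All 3 DKO arrays lay above the highest ApoE-KO array, as in 1 of 28 members (3.57%, against 5.55% of all probe sets). Its difference of 0.20 (95% interval 0.029 to 0.37, paired limma, adjusted p = 0.251, unpaired interval -0.021 to 0.42) did not pass. It came from pairs 2 and 3, at 0.30 and 0.28, and pair 1 stood at 0.025.

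The other 3 genes of this group were close to 0. Npc1l1, the sterol transporter of the gut lining, read 7.56 to 7.70 over the 6 arrays with a difference of -0.056. Stard4, a carrier of sterol between membranes, stood at -0.032, and Lpin1, a phosphatidate phosphatase whose gene is an SREBP target, at -0.060.

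The larger differences among the members followed replicate number. With sign ignored, the median genotype difference was 0.085, close to the 0.083 over all probe sets. With sign kept, it was 0.020 (-0.0024 over all probe sets). The median member was 0.25 higher in the replicate 1 arrays than in the others, also with sign kept. Over all probe sets that median was 0.020, where shifts of opposite sign cancel. In 18 of 28 members both replicate 1 arrays, 1 of each genotype, stood above the other 4 arrays (64.3%, against 19.8% of all probe sets). Replicate 1 was the highest ApoE-KO array in 21 members (75%, against 42.4%) and the highest DKO array in 22 (78.6%, against 42.6%). It was the highest of its group in both genotypes in 19 members (67.9%, against 27.4%), and DKO replicate 1 was the highest of all 6 arrays in 15 (53.6%, against 24.2%). Replicate 1 was singled out after the values were seen. All members were read on the same arrays, so the members in a count are not separate observations. What a replicate number stands for is not stated in the labels used here.

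A test of the replicate numbers beside genotype, with limma over all probe sets and chosen after the values were seen, passed for 8 of 28 members (28.6%, against 12.2% of all probe sets), and 17 had an unadjusted p under 0.05 (60.7%, against 30%). The 8 were Insig2 (adjusted p = 0.0124), Cyp51 (0.0176), Idi1 (0.0182), Msmo1 (0.0225), Sqle (0.0338), Lss (0.0338), Hsd17b7 (0.0345) and Ggps1 (0.0400), so 7 of them were among the 19 synthesis enzymes and 1 was a control gene. Replicate 1 arrays exceeded the rest by 0.88 in Idi1, 0.65 in Cyp51, 0.61 in Sqle and 0.59 in Msmo1. Both replicate 1 arrays led in 15 of the 19 synthesis enzymes, in 2 of the 4 control genes (Srebf2 and Insig2) and in 1 of the 5 uptake and transport genes and other targets (Stard4). In Ebp, Scap, Insig1, Npc1l1, Mylip and Lpin1 the replicate 1 arrays differed from the rest by -0.16 to 0.016.

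**Figure D2:**
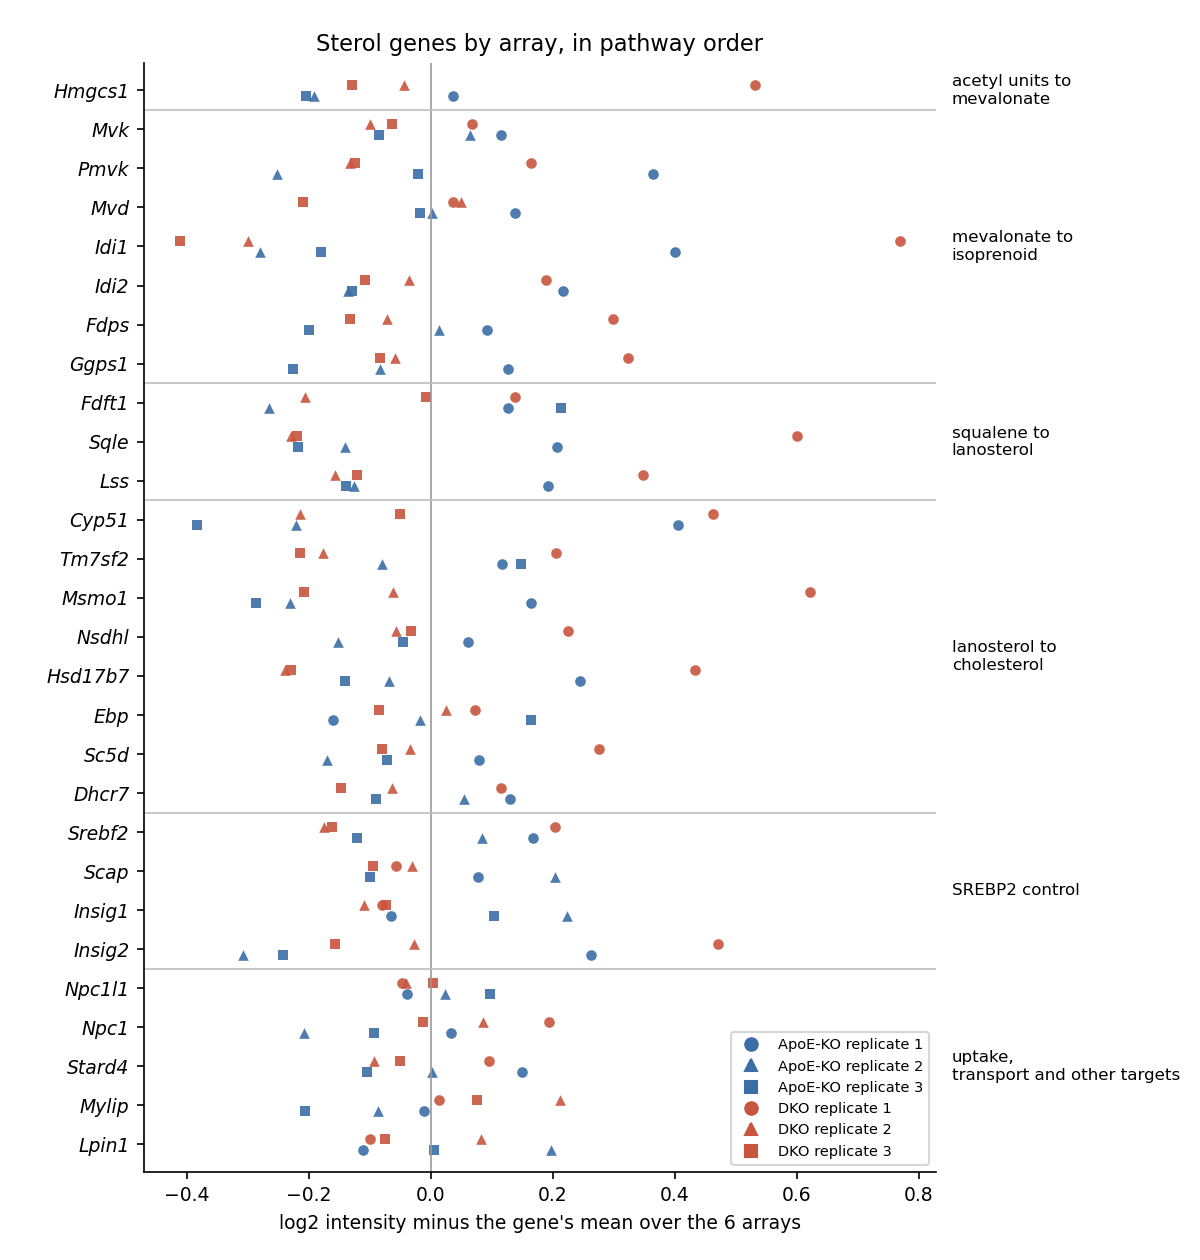
Log2 intensity of each member in each of the 6 arrays, minus that gene's mean, in pathway order; colour gives genotype and symbol gives replicate number. Circles, the replicate 1 arrays of both genotypes, lie at the right end in 18 of 28 members. Of the 19 synthesis enzymes, from Hmgcs1 to Dhcr7, 15 are among them, and the rest are Srebf2, Insig2 and Stard4.

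**Figure D3:**
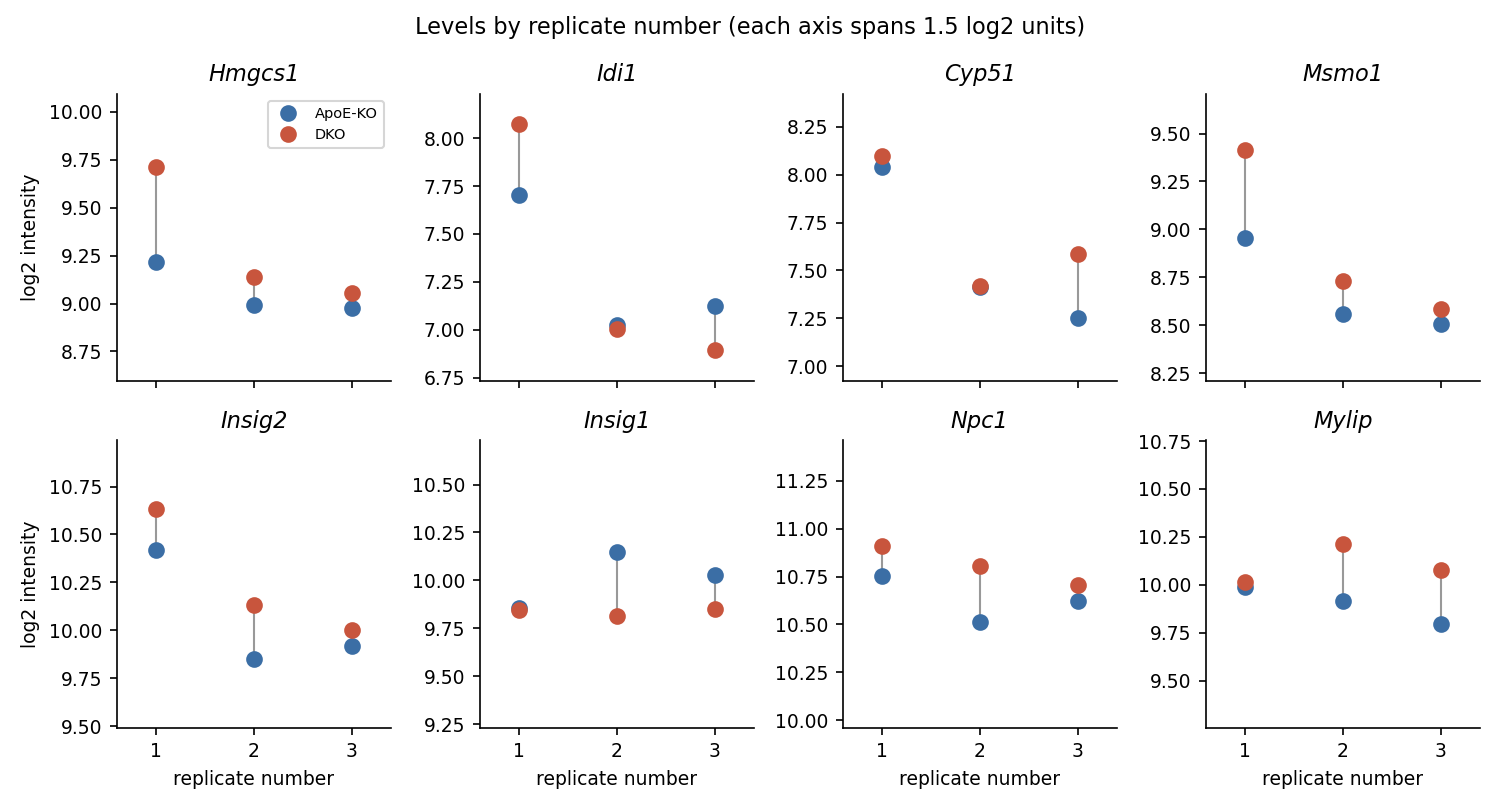
Log2 intensity of 8 members by replicate number, with 1 point per array and a grey line joining the arrays that share a number; each vertical axis spans the same range, 1.5. Hmgcs1, Idi1, Cyp51, Msmo1 and Insig2 stand highest at number 1 in both genotypes, and so does Npc1. Insig1 is lower in DKO at every number. Hmgcs1, Cyp51, Msmo1, Insig2, Npc1 and Mylip are higher in DKO at every number, and Idi1 is mixed.

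Averaged over the 28 members, the arrays stood at 0.13, -0.077 and -0.092 from the gene means in ApoE-KO and at 0.23, -0.078 and -0.11 in DKO. Against the mean of the other members over the 6 arrays, 16 members had a Pearson correlation over 0.8, led by Idi1 and Lss (0.99 each), Sqle and Hsd17b7 (0.98 each), and 5 were below 0 (Ebp, Insig1, Npc1l1, Mylip and Lpin1). These correlations share the same 6 arrays and carry no test. The 5 genes outside the list with the profile most like the members' mean over these arrays, out of all genes with a row, were Wscd2 (r = 0.998), Smarca5 (0.997), Tmem237 (0.996), Rnf138 (0.995) and Pth1r (0.995), none of which is an enzyme of sterol synthesis.

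Marker levels of other cells also varied by replicate number. White adipocyte markers, 9 of 9 with a row, had a mean level of 9.90 and 9.42 in the replicate 1 arrays of ApoE-KO and DKO, against 10.58 and 10.29 in the other ApoE-KO arrays and 10.21 and 9.80 in the other DKO arrays. Endothelial markers (6 of 6) stood at 9.98 and 9.99 in the replicate 1 arrays against 10.39 to 10.63 elsewhere, and smooth muscle markers at 12.79 and 12.85 against 12.59 to 12.73. Macrophage markers (7 of 7) were lowest in DKO replicate 1, at 9.58 against 10.01 to 10.51 in the other 5 arrays. Lung epithelial markers (6 of 6) stood at 10.32 and 9.75 in the replicate 3 arrays against 6.60 to 6.67 elsewhere. Their part in the sterol gene levels was not tested.

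Markers of liver, an organ that makes cholesterol, had a row for 5 of 6. Their mean levels were 6.58, 6.65 and 6.66 in the 3 ApoE-KO arrays and 6.54, 6.54 and 6.62 in the 3 DKO arrays. Among them albumin (Alb) was lowest in the replicate 1 arrays, at 5.58 in each genotype against 5.72 to 6.18 elsewhere, and the other 4 differed between replicate 1 and the rest by -0.067 to 0.090. These are mostly dim: by mean level Alb, Ttr, Fgb and Cps1 stood at percentiles 12.6, 15.5, 20.7 and 25.3 of all probe sets, and Apoa1 at 48.4. Their part in the sterol gene levels was not tested either. The remaining marker lists, given as mean levels in ApoE-KO and then DKO, were adventitial fibroblast (6 of 6, 12.16 to 12.44 and 12.10 to 12.47), brown adipocyte (6 of 7, 9.02 to 9.65 and 8.72 to 9.39) and mesothelium (8 of 8, 7.49 to 7.87 and 8.04 to 8.48). Of the mesothelium markers 2 rose in the paired fit, where 0.174% of all probe sets passed, and 0 passed unpaired. Sympathetic neuron markers (6 of 6) ran from 6.72 to 7.89 and 6.42 to 6.72, and Schwann cell markers (4 of 7) from 8.88 to 9.40 and 8.92 to 9.14. Skeletal muscle (6 of 6) ran from 7.51 to 8.55 and 7.47 to 8.18, and lymphocytes (5 of 6) from 6.70 to 7.12 and 6.60 to 7.19.

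The genes around the members were read from 5 further lists. Among partners of SREBP processing and sterol sensing, 14 of 17 had a row, 0 passed in either fit, 6 were higher and 8 lower in DKO, and the median was -0.016. The 3 with the smallest unadjusted p in the paired fit were Srebf1, the paralogue that drives fatty acid synthesis (-0.22), Nr1h3, the sterol-sensing receptor LXR alpha (-0.24), and Rnf145, a sterol-responsive ubiquitin ligase (-0.18), with adjusted p of 0.200, 0.211 and 0.196. Each was lower in DKO in 3 of 3 pairs, as were 19.1% of all probe sets, and choice by the paired fit favours genes whose pairs agree. In the same list Syvn1 was also lower in 3 of 3 pairs (mean -0.055). Paqr3, Erlin2 and Sec24d were higher in 3 of 3 pairs (means 0.20, 0.18 and 0.044).

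Of synthesis steps outside the members, 6 of 10 had a row and 0 passed, 4 higher and 2 lower in DKO with a median of 0.050. They included the thiolase Acat1 (0.11), the reductase Lbr (0.087) and Cyb5r3, which feeds electrons to the desaturation steps (0.16). In the isoprenoid branch, 13 of 15 had a row and 0 passed. Of the 13, 10 were higher and 3 lower in DKO with a median of 0.092 (49.3% of all probe sets were higher). Among them were the geranylgeranyl transferase subunit Pggt1b (0.29, paired limma, adjusted p = 0.124), the protease Zmpste24 that matures prenylated lamin A (0.23) and the Rab escort Chm (0.16).

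Lipoprotein uptake and intracellular sterol transport had 18 of 19 genes with a row and 0 passed, 9 higher and 9 lower with a median of 0.0039. Vldlr, a receptor for triglyceride-rich lipoproteins, read 10.54, 10.17 and 10.28 in the ApoE-KO mice, against 11.05, 10.62 and 10.60 in the DKO mice, a difference of 0.43 (paired limma, adjusted p = 0.0545). The lysosomal lipase Lipa stood at 0.20 and the scavenger receptor Scarb1 at -0.24.

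Fatty acid synthesis, driven mainly by the SREBP1 paralogue, was the list with the lowest median of the 5. All 17 genes had a row, and 15 were lower in DKO and 2 higher (49.3% of all probe sets were higher). The median was -0.25, beside 0.020 for the sterol members and -0.0024 over all probe sets. In the paired fit, where 0.174% of all probe sets passed, 1 did: Thrsp, a regulator of lipogenesis, which fell by 1.32 (limma, adjusted p = 0.0467). The other 16 did not, and unpaired 0 passed. Thrsp read 10.001, 9.85 and 9.43 in the ApoE-KO mice, against 8.21, 8.72 and 8.39 in the DKO mice, without overlap. Acaca, which commits acetyl units to fatty acids, stood at -0.57 and Fasn, the fatty acid synthase, at -1.13 (adjusted p = 0.0545 and 0.0721). White adipocyte markers had lower means in DKO in 8 of 9, of which 2 fell in the paired fit, and 0 passed unpaired. Their mean levels were 9.90 to 10.58 in ApoE-KO and 9.42 to 10.21 in DKO. The lists share no gene, and the part of fat tissue in these values was not tested, nor was the difference between the 2 lists.

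**Figure D4:**
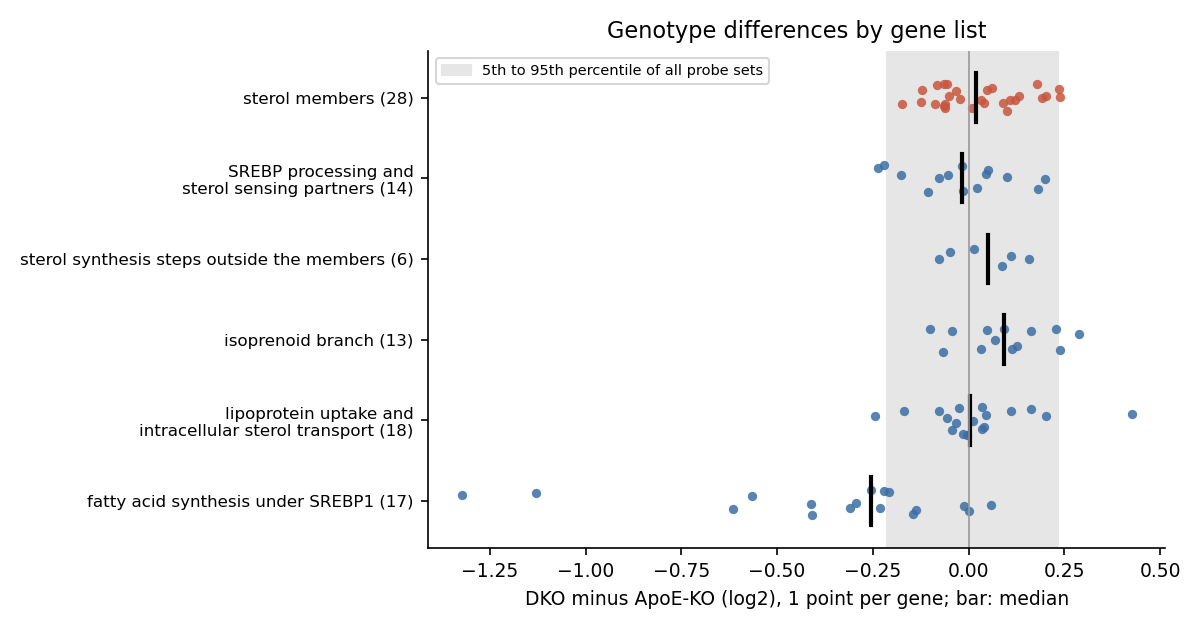
DKO minus ApoE-KO in log2 intensity for the sterol members and 5 related lists, with 1 point per gene, a black bar at each median and a grey band from the 5th to the 95th percentile of all probe sets (-0.21 to 0.24). The sterol members lie within or at the edge of the band around a median of 0.020, and the fatty acid synthesis genes reach -1.32.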

How the data were processed

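Log2 intensities of 25254 probe sets on 6 arrays were taken from 1 table the authors deposited. Per the submitters' processing notes, RMA, Partek and the mouse build mm9 were involved, and no version is given. Removal of a batch effect is not stated. Medians of the arrays were 8.01 to 8.02. The number of arrays limits the precision.

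The platform annotation names 1 gene for 21496 probe sets, several for 1565 and none for 2193; those naming several were not used to name a gene. The members and lists were chosen with earlier results of these data known. DKO minus ApoE-KO was tested over all probe sets with limma 3.58.1 in R 4.3.3 (lmFit, eBayes with intensity trend, two-sided, Benjamini-Hochberg at 0.05, no filter), and again with the replicate number as a block. Intervals are 95% limma intervals. The numbers pair the samples by the data, not by a label: deviations from group means of same-numbered arrays correlated at 0.60, 0.50 and 0.64. The limma calls were tested on simulated data.

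Values by array are given for the 8 members with the smallest unadjusted p in the paired fit and for the 4 control genes; Idi1, Sqle and Cyp51 were added after their values were seen. Per related list the 3 genes with the smallest p are named, and the 5 genes most like the members. Promoter sequences are RefSeq's. Alternatives were the block with and without moderation, quantile normalization, median centring, a filter at the 40th percentile, eBayes without trend or robust, array weights, other probe sets and each array left out.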

Additional observations from a re-analysis of the deposited data

How the results depend on the processing

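No member passed in the unpaired fit or under any of 17 alternatives, 6 of which left out 1 array each. Over all probe sets 0 passed unpaired, 44 with the replicate block, 415 with the replicate block without pair 1, 48 without pair 3, and 8 unpaired without DKO replicate 3 (0 to 8 over the arrays left out); the other alternatives, among them the replicate block without moderation, gave 0. The median member difference was 0.020 and ran from -0.079 to 0.11 with 1 array left out, was -0.016 with array weights, and was -0.033 with the replicate block without pair 1. Signs of small differences turned with array weights for Ebp (-0.017), Fdps (-0.0074), Idi1 (-0.063), Lss (-0.0042) and Sqle (-0.014), with quantile normalization for Ebp (-0.026) and Stard4 (0.0040), and with all probe sets averaged for Fdft1 (0.032). With the block they turned without pair 1 for Ebp (-0.10), Fdps (-0.010), Idi1 (-0.13), Lss (-0.0062), Pmvk (0.0079) and Sqle (-0.045), without pair 2 for Ebp (-0.0084), Hsd17b7 (0.050), Idi2 (-0.0029) and Stard4 (0.000050) and without pair 3 for Fdft1 (0.035) and Hsd17b7 (0.0092). With 1 array left out, unpaired, differences that changed sign ran from the first to the second value for Pmvk (-0.20 to 0.11), Mvd (-0.13 to 0.0027), Idi1 (-0.34 to 0.25), Idi2 (-0.055 to 0.15), Fdps (-0.071 to 0.14), Ggps1 (-0.010 to 0.21), Fdft1 (-0.20 to 0.044), Sqle (-0.17 to 0.24), Lss (-0.11 to 0.16), Cyp51 (-0.066 to 0.37), Msmo1 (-0.016 to 0.40), Hsd17b7 (-0.25 to 0.093), Ebp (-0.069 to 0.093), Sc5d (-0.0026 to 0.17), Stard4 (-0.091 to 0.035) and Lpin1 (-0.13 to 0.023). Those that kept their sign ran likewise for Hmgcs1 (0.034 to 0.36), Mvk (-0.12 to -0.022), Tm7sf2 (-0.26 to -0.048), Nsdhl (0.0014 to 0.14), Dhcr7 (-0.14 to -0.0058), Srebf2 (-0.21 to -0.023), Scap (-0.20 to -0.050), Insig1 (-0.25 to -0.11), Insig2 (0.0041 to 0.37), Npc1l1 (-0.089 to -0.021), Npc1 (0.12 to 0.24) and Mylip (0.15 to 0.25). Without the filter all 28 members were tested, and above the 40th percentile 25 were. The replicate block changed no call of a member. The causes were not tested.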
